A study of Homo sapiens with 70 samples.

Results

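The departure from additive drug effects in Hep3B is the part of a gene's response to a drug pair that the sum of its responses to the single drugs leaves over. For each gene it was taken as the log2 fold change with both drugs minus that with sorafenib minus that with GW3965, each against vehicle. Of the 20090 genes in the deposited tables, 11561 reached a mean of 2 CPM (read counts scaled to library size) in the Hep3B comparisons and form the members. Hep3B is an established human hepatocellular carcinoma line. GW3965 activates the liver X receptors (LXR), and sorafenib inhibits RAF and several receptor tyrosine kinases. The 4 Hep3B groups received both 5 µM GW3965 and 2 µM sorafenib, 2 µM sorafenib alone, 5 µM GW3965 alone, or DMSO alone, and comprised 9 libraries each, 36 of the 70 in the series. Drugs were given 24 h after seeding, and poly-A RNA was sequenced after 24 h of drug. Huh7, also a hepatocellular carcinoma line, received the same 4 treatments, with 9 libraries each for the groups labelled combination and sorafenib and 8 each for those labelled GW3965 and DMSO.

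The LXR are sterol-sensing nuclear receptors, known in liver cells for raising cholesterol export and lipogenesis. Sorafenib blocks signalling through RAF and ERK, and it is also known to set off stress pathways in liver cancer cells. These include the integrated stress response, in which ATF4 raises amino acid and survival genes, and the unfolded protein response, which raises chaperones of the endoplasmic reticulum (ER). A departure above 0 means that a gene was higher with both drugs than at additive log2 effects, and a departure below 0 that it was lower. The departure also equals the GW3965 step on top of sorafenib minus the GW3965 step on top of DMSO, and these 2 steps share no library.

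Per-library values were not analysed here, so the depth is unknown and no replicate SD could be given. Group levels in CPM were worked out from the mean and the fold change in each table, and each departure is given on the log2 scale with the standard error of an approximate test built on the authors' p-values. A departure was called at an adjusted p under 0.05 over all 11561 genes. Whether libraries came from separate cultures is not stated in the labels, so the errors measure the spread between libraries, which may be technical. In bulk RNA, fewer cells that express a gene and less of its RNA per cell cannot be told apart. All 10 hepatoma markers examined were measured in Hep3B, between 33.0 and 8646 CPM. Of 13 markers of blood, endothelial and stromal cells, 11 were at or below 0.749 CPM, and the exceptions were LYZ (lysozyme) and CD68 (a lysosomal glycoprotein), at 33.0 and 11.6 CPM.

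Both drugs together departed from the sum of the single drugs in 2574 genes, 22.3% of those tested. The departure was called higher in 1253 genes (10.8%) and lower in 1321 (11.4%). Across all members the departure had a median of 0.02, with 5th and 95th percentiles of -0.70 and 0.62, against a median standard error of 0.170. It ranged from -3.03 for SLC2A2, the liver glucose transporter, to 2.87 for MT2A, a metal-binding metallothionein. Departures of 1 or more numbered 86, and those of -1 or less 196. At the lower limit of expression, MCTP2 lay just inside at a mean log2 CPM of 1.0003 with a departure of 0.29, and HSD11B1L just outside at 0.99886 with a departure of -0.32.

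**Figure D1:**
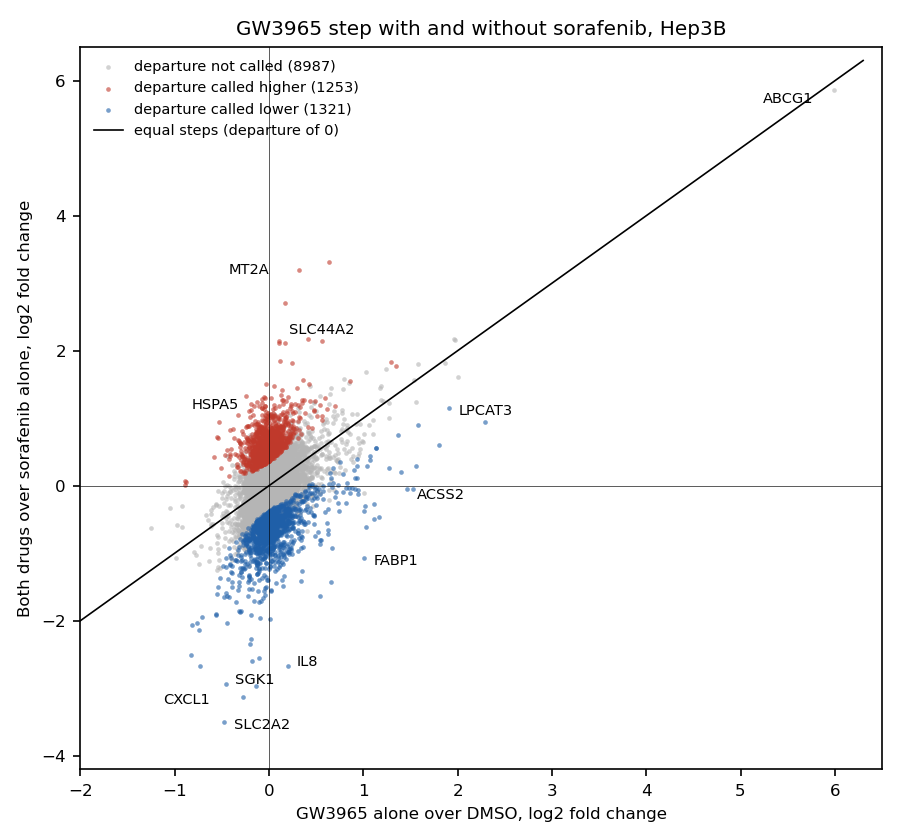
Each point is a gene: its log2 fold change with both drugs over sorafenib alone (vertical axis) against its log2 fold change with GW3965 alone over DMSO (horizontal axis). Red and blue mark the 1253 and 1321 genes called above and below additivity; MT2A and SLC44A2 lie far above the line of equal steps, SLC2A2 and CXCL1 far below it, and ABCG1 close to it.

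The GW3965 step was wider over genes in sorafenib-treated cells than in vehicle-treated cells. On top of sorafenib it was 2-fold or more up in 145 genes and 2-fold or more down in 193. On top of DMSO, those numbers were 46 and 2. The SD of the step over genes was 0.441 with sorafenib and 0.196 without it. The sorafenib step was 2-fold or more up in 741 genes and down in 786 in the presence of GW3965, against 391 and 232 in its absence. Of the 2574 departing genes, 2185 (84.9%) had no call for GW3965 alone at an FDR of 0.05 in the authors' deposited table. Calls for GW3965 alone were few over all members as well, as given next. The 84.9% is thus not particular to departing genes. Over all members, the authors' deposited tables at that FDR called 36% higher and 36% lower with both drugs, 23.3% higher and 28.1% lower with sorafenib, and 7.31% higher and 3.81% lower with GW3965.

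Most departing genes had a both-drug level outside the range of the other groups, by group level alone, with no margin or test. Selection on the departure itself favours such levels, and the same share over all genes was not counted. The shares that follow are thus descriptions. Of the 1253 called higher, 1132 (90.3%) had a level with both drugs above the sorafenib, GW3965 and DMSO groups, and 121 lay between them. Of the 1321 called lower, 1169 (88.5%) lay below all 3 groups, 142 lay between them and 10 lay above. A stricter subset also passed the FDR of 0.05 with both drugs, and with neither drug alone, in the authors' deposited tables: 524 genes called higher (4.53% of those tested) and 440 called lower (3.81%). PDE4DIP, a Golgi and centrosome scaffold, belonged to it, with 47.8 CPM with both drugs, 23.0 with sorafenib, 21.1 with GW3965 and 21.8 with DMSO. Its departure was 1.10 ± 0.15 (approximate test adjusted p = 2.36e-10). The laminin subunit gene LAMA5 had 64.6 CPM with both drugs, 211 with sorafenib, 183 with GW3965 and 193 with DMSO, a departure of -1.62 ± 0.30 (approximate test adjusted p = 3.51e-06).

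The largest positive departures included metallothioneins, small cysteine-rich proteins that bind zinc and copper. The 250 bases before the MT2A start are shown because they hold metal response elements, for which this promoter is known, and because MT2A heads the members (RefSeq, GRCh38.p14, chr16:56608334-56608583, plus strand). Capitals mark the element core, TGCACNC or TGCGCNC on either strand, which was found 7 times here. The same core was found in 24.8% of 35116 RefSeq promoter windows of this length, and in 2 of the 3 windows of measured list members.
MT2A: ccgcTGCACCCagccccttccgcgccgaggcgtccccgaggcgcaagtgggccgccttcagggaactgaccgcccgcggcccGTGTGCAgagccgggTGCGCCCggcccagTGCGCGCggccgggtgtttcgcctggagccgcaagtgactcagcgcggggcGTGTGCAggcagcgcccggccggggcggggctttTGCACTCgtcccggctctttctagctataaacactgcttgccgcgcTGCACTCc

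MT2A had 65.5 CPM with both drugs, 7.17 with sorafenib, 4.89 with GW3965 and 3.92 with DMSO. The level with both drugs stood above the other 3 groups, of which sorafenib was the highest, and the departure was 2.87 ± 0.56 (approximate test adjusted p = 1.52e-05). Its relative MT1E had 11.9 CPM with both drugs, 1.82 with sorafenib, 1.12 with GW3965 and 1.00 with DMSO, a departure of 2.54 ± 0.55 (approximate test adjusted p = 0.000132). SLC30A1, the plasma membrane zinc exporter and a target of the metal-sensing factor MTF1, had 40.0 CPM with both drugs and 17.6 to 19.4 CPM in the other 3 groups. It departed by 0.94 ± 0.22 (approximate test adjusted p = 0.000373). MTF1 itself ranged from 5.77 to 6.75 CPM over the 4 groups, with a departure of -0.15 ± 0.21 (approximate test adjusted p = 0.640). Thus 3 of the 4 measured members of the metal list were called higher and 0 lower (0 at an unadjusted p under 0.05). The shares over all genes were 10.8% higher and 11.4% lower. The other 7 metallothioneins listed averaged under 2 CPM, and with no minimum 5 of the list were called higher. Metallothionein transcripts are near-identical, so reads may have been split between copies.

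Genes of the ER chaperones and the unfolded protein response were called above additivity in 12 of 21 cases, and in the approximate test none was called lower (0 also at an unadjusted p under 0.05). Their median departure was 0.61, against 0.02 over all genes. Of all genes, 10.8% were called higher and 11.4% lower. The list's median log2 fold change was 0.69 with both drugs, -0.08 with sorafenib and 0.08 with GW3965 in the authors' deposited tables. The 250 bases before the start of HSPA5, the main ER chaperone (BiP), are shown because they carry the ER stress response element (CCAAT, any 9 bases, then CCACG, on either strand), in capitals (RefSeq, GRCh38.p14, chr9:125241344-125241593, minus strand). The first base of the match lay 66 bases before the start. This element was found in 7 of the 20 list members with a window and in 0.074% of all 35116 windows. It was not found in the windows of HERPUD1, SDF2L1 and DNAJB9, which were called higher, and it was found in that of CALR, which was not called.
HSPA5: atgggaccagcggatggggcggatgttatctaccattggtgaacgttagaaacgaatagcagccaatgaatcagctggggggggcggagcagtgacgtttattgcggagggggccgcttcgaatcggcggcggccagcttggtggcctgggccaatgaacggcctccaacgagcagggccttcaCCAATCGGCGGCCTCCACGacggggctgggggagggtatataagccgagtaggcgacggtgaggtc

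HSPA5 had 1166 CPM with both drugs, 569 with sorafenib, 594 with GW3965 and 583 with DMSO. The single-drug levels lay close to the vehicle level and the both-drug level stood apart, a departure of 1.01 ± 0.15 (approximate test adjusted p = 1.07e-08). HERPUD1, a membrane protein of ER-associated degradation, had 141 CPM with both drugs, 61.7 with sorafenib, 27.4 with GW3965 and 26.5 with DMSO. Here sorafenib alone had raised the gene, and both drugs stood a further 1.14 ± 0.15 above the sum (approximate test adjusted p = 7.72e-11). SDF2L1, an ER chaperone cofactor, had 38.5 CPM with both drugs, 21.0 with sorafenib, 24.8 with GW3965 and 26.6 with DMSO, a departure of 0.98 ± 0.18 (approximate test adjusted p = 4.92e-06). The HSPA5 cochaperones DNAJB9 and DNAJC3 departed by 0.86 and 0.81, and the sensor ATF6 and the transcription factor XBP1 by 0.61 and 0.68. The sensor kinase gene ERN1 (IRE1) had 30.9 CPM with both drugs and 6.02 CPM with DMSO, and its departure of 0.75 ± 0.31 was not called (approximate test adjusted p = 0.0634). The lectin chaperone CALR and the disulfide isomerase PDIA3 were not called, with departures of -0.03 and -0.11.

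**Figure D2:**
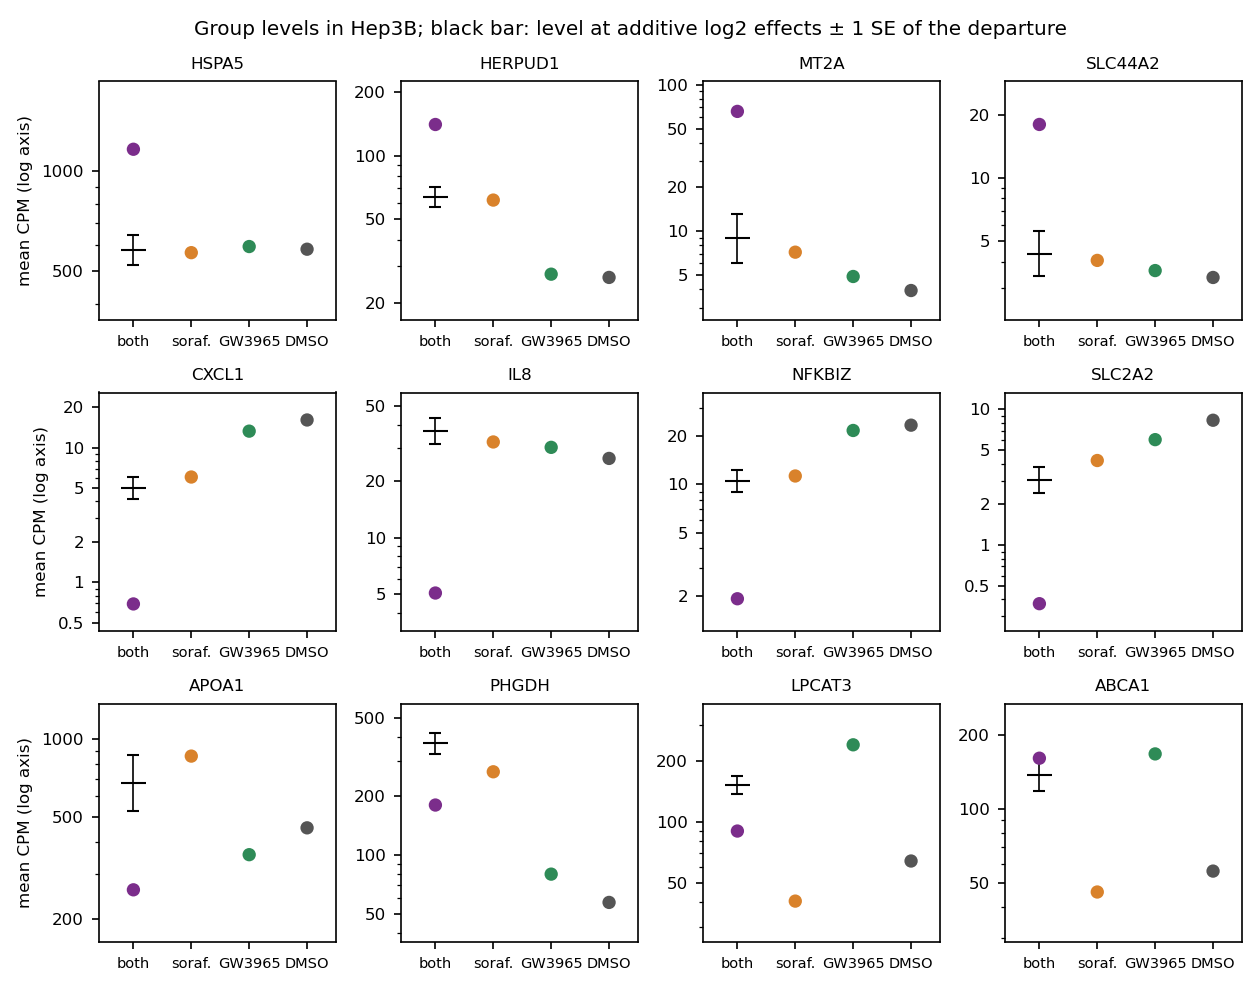
Mean level (CPM, log axis) of 12 genes in Hep3B with both drugs, sorafenib, GW3965 and DMSO, left to right in each panel. The black bar gives the level at additive log2 effects ± 1 SE of the departure; HSPA5, HERPUD1, MT2A and SLC44A2 lie above the bar with both drugs, ABCA1 lies within its departure's 95% interval, and the other 7 genes lie below.

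Of 15 measured genes of oxidative stress and its main regulator NRF2, 3 were called higher and 1 lower, with a median departure of -0.19. The shares over all genes were 10.8% higher and 11.4% lower. With so few genes, nothing is read from these counts for the list. GCLC, the catalytic subunit for glutathione synthesis, had 83.4 CPM with both drugs, 41.3 with sorafenib, 34.2 with GW3965 and 34.1 with DMSO, a departure of 1.01 ± 0.15 (approximate test adjusted p = 9.57e-09). The sulfiredoxin gene SRXN1 and the thioredoxin reductase gene TXNRD1 departed by 0.89 ± 0.15 and 0.83 ± 0.16. The ferritin light chain gene FTL was called lower, at 1938 CPM with both drugs against 2389 to 2514 CPM in the other groups (departure -0.43 ± 0.16, approximate test adjusted p = 0.0386). NQO1 and HMOX1, classic NRF2 targets, had departures of -0.57 ± 0.24 and -0.55 ± 0.22 and were not called (approximate test adjusted p = 0.0756 and 0.0507).

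The integrated stress response was high with both drugs and with sorafenib alone, and a part of it lay below the sum of the single-drug log2 effects. Its 26 measured genes had a median log2 fold change of 2.39 with both drugs, 2.26 with sorafenib and 0.44 with GW3965 in the authors' deposited tables. The departure was called lower in 12 and higher in 3, with a median of -0.44. Over all genes, 11.4% were called lower and 10.8% higher. PHGDH, the first enzyme of serine synthesis, had 179 CPM with both drugs, 265 with sorafenib, 79.6 with GW3965 and 57.1 with DMSO, so each drug alone raised it and the pair stayed under sorafenib alone. Its departure was -1.04 ± 0.17 (approximate test adjusted p = 1.47e-07). CHAC1, which breaks down glutathione, had 85.4 CPM with both drugs and 91.9 with sorafenib, against 14.1 with GW3965 and 7.77 with DMSO (departure -0.97 ± 0.19, approximate test adjusted p = 2.27e-05). The regulator ATF4 departed by -0.46 ± 0.16 (approximate test adjusted p = 0.0251). TRIB3, a pseudokinase raised by ATF4, had 542 CPM with both drugs, 323 with sorafenib, 84.7 with GW3965 and 32.9 with DMSO, a departure of -0.62 ± 0.19 (approximate test adjusted p = 0.00965). The 3 called higher were CTH, an enzyme of cysteine synthesis (0.99 ± 0.26), PPP1R15A, which restarts translation (0.97 ± 0.20), and the amino acid transporter heavy chain SLC3A2 (0.69 ± 0.20). DDIT3 (CHOP), ATF3 and ASNS were not called, with departures of 0.20 ± 0.23, 0.64 ± 0.28 and -0.34 ± 0.16. With additivity taken on the linear CPM scale, 7 of the list were called higher and 2 lower. TRIB3 turned to an excess, and CHAC1 and ATF4 lost their calls. Of all 11561 genes, that scale called 1366 higher and 1130 lower.

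Aminoacyl-tRNA synthetases, which load amino acids onto tRNAs and in part depend on ATF4, were called higher in 4 of 18 cases and lower in 1, with 13 not called and a median departure of -0.02. At an unadjusted p under 0.05 the split was 5 higher and 4 lower. VARS had 320 CPM with both drugs, 186 with sorafenib, 282 with GW3965 and 263 with DMSO (departure 0.69 ± 0.14, approximate test adjusted p = 6.89e-05). RARS and LARS departed by 0.65 and 0.43. The member called lower was IARS, with 193 CPM with both drugs, 266 with sorafenib, 197 with GW3965 and 166 with DMSO, a departure of -0.71 ± 0.20 (approximate test adjusted p = 0.00512). The heat shock list, mainly of cytosolic chaperones, held 1 of 16 genes called higher and 3 lower, with a median departure of -0.10. Beside 10.8% higher and 11.4% lower over all genes, nothing is read from the counts of this list or of the synthetases. HSPA1A, the inducible HSP70, had 6.26 CPM with both drugs, 12.3 with sorafenib, 24.0 with GW3965 and 24.1 with DMSO (departure -0.97 ± 0.23, approximate test adjusted p = 0.000476). Its near-identical copy HSPA1B departed by -0.86 ± 0.25, and reads may have been split between them. HSPE1, the partner of the mitochondrial HSP60, departed by -0.60 ± 0.18 (approximate test adjusted p = 0.00942). HSPA4 departed by 0.38 ± 0.14 (approximate test adjusted p = 0.0413). It lost its call on the linear scale, with the median centred, and with no minimum on expression.

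**Figure D3:**
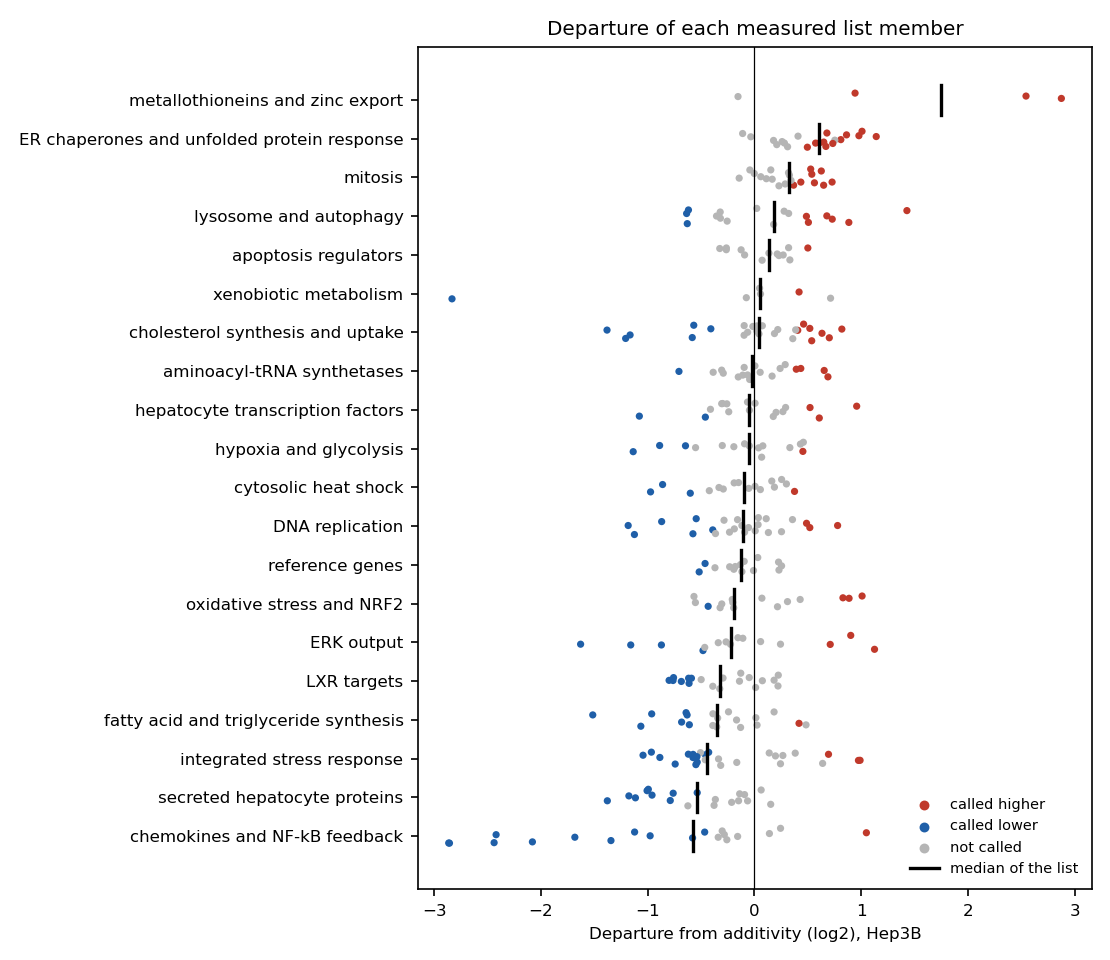
Departure (log2, horizontal axis) of each measured member of 20 gene lists in Hep3B, with the list median as a black bar; the vertical scatter within a row has no meaning. Red and blue points are called higher and lower; the median is 0.61 for ER chaperones and the unfolded protein response, -0.44 for the integrated stress response and -0.58 for chemokines and NF-kB feedback.

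Of the 19 measured LXR targets, 7 were called lower, against 11.4% of all genes. ABCA1, ABCG1, SREBF1, SCD and FASN were among those with no call. ABCA1, which exports cholesterol to apolipoproteins, had 160 CPM with both drugs, 46.1 with sorafenib, 167 with GW3965 and 56.0 with DMSO. Both drugs and GW3965 alone thus gave similar levels, and the departure was 0.22, with a 95% interval from -0.21 to 0.65 (approximate test adjusted p = 0.491). ABCG1, also a sterol exporter, had 54.7 CPM with both drugs, 0.940 with sorafenib, 39.6 with GW3965 and 0.623 with DMSO, a departure of -0.13 with an interval from -0.79 to 0.54 (approximate test adjusted p = 0.829). The intervals were -0.05 to 0.49 for SREBF1, the lipogenic transcription factor, -0.17 to 0.54 for the desaturase SCD, and -0.88 to 0.10 for the fatty acid synthase FASN. These intervals do not show that the drugs act additively on these genes. On the linear scale SREBF1, SCD and FASN were each called below additivity.

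The whole list of LXR targets, these 5 included, held 7 of 19 genes called lower and 0 higher in the approximate test (0 also at an unadjusted p under 0.05), with a median departure of -0.32. The other 12 had no call, among them MYLIP, a ubiquitin ligase gene, at -0.05. Over all genes the shares were 11.4% lower and 10.8% higher. LPCAT3, which builds polyunsaturated phospholipids, had 89.8 CPM with both drugs, 40.5 with sorafenib, 240 with GW3965 and 63.9 with DMSO. GW3965 alone raised it far above the level reached in the presence of sorafenib, and the departure was -0.76 ± 0.14 (approximate test adjusted p = 7.20e-06). NR1H3, the gene of LXRα, had 30.0 CPM with both drugs, 27.7 with sorafenib, 40.2 with GW3965 and 21.3 with DMSO (departure -0.80 ± 0.17, approximate test adjusted p = 5.60e-05). SCARB1, the HDL receptor, and PLIN2, a lipid droplet coat protein, departed by -0.76 and -0.68. The apolipoprotein gene APOE departed by -0.61 ± 0.18 (approximate test adjusted p = 0.00654). On the linear scale 11 of the 19 LXR targets were called lower, against 1130 of all 11561 genes.

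Fatty acid and triglyceride synthesis showed 7 of 19 genes called lower and 1 higher, with a median departure of -0.35. Of all genes, 11.4% were called lower and 10.8% higher. ACSS2, which makes acetyl-CoA from acetate, had 17.6 CPM with both drugs, 18.3 with sorafenib, 39.3 with GW3965 and 14.2 with DMSO. The rise with GW3965 alone was thus not seen on top of sorafenib (departure -1.51 ± 0.21, approximate test adjusted p = 5.91e-10). PNPLA3, a lipid droplet hydrolase, had 10.2 CPM with both drugs, 12.2 with sorafenib, 36.7 with GW3965 and 20.9 with DMSO (departure -1.06 ± 0.22, approximate test adjusted p = 7.49e-05). ACACB, a mitochondrial acetyl-CoA carboxylase, was highest with sorafenib alone, at 12.2 CPM, against 6.51 with both drugs, 5.55 with GW3965 and 5.35 with DMSO (departure -0.96 ± 0.22, approximate test adjusted p = 0.000254). GPAM, the first enzyme of triglyceride synthesis, departed by -0.68 ± 0.26 (approximate test adjusted p = 0.0459), and lost its call on the linear scale and with no minimum on expression. On the linear scale 12 of this list were called lower, against 1130 of all 11561 genes.

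Cholesterol genes were split, with 7 of 25 called higher, 6 lower and a median departure of 0.04. The shares over all genes were 10.8% higher and 11.4% lower. LSS, which closes the sterol ring, had 41.4 CPM with both drugs, 53.6 with sorafenib, 208 with GW3965 and 103 with DMSO, a departure of -1.38 ± 0.24 (approximate test adjusted p = 1.04e-06). The sterol reductase gene TM7SF2 departed by -1.16 ± 0.15. HSD17B7, also an enzyme of sterol synthesis, lay on the other side, with 16.0 CPM with both drugs, 6.68 with sorafenib, 15.4 with GW3965 and 11.4 with DMSO (departure 0.82 ± 0.18, approximate test adjusted p = 0.000125). INSIG1, the sterol sensor partner, departed by 0.54 ± 0.19 (approximate test adjusted p = 0.0304). INSIG1 turned to a negative value on the linear scale, where 2 of the list were called higher and 13 lower. Of all 11561 genes, that scale called 1366 higher and 1130 lower. HMGCS1, an early enzyme of the pathway, was not called (0.02, interval -0.30 to 0.35), but was called below additivity on the linear scale.

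Chemokines and NF-kB feedback genes held 5 of the 10 lowest departures at a mean of 4 CPM or more. NF-kB is the transcription factor family that drives inflammatory genes, including those of its own inhibitors. Of 19 measured, 11 were called lower and 1 higher, with a median departure of -0.58. Over all genes, 11.4% were called lower and 10.8% higher. The promoters of 3 chemokine genes are shown because they hold the NF-kB motif and their genes lie among the lowest departures (RefSeq, GRCh38.p14, all on the plus strand: CXCL1 at chr4:73869143-73869392, CXCL6 at chr4:73836428-73836677 and CCL20 at chr2:227813592-227813841). Capitals mark the motif searched, which is GGG, any 2 bases, TT, any base and CC, on either strand. The first base of the match lay 79 bases before the start in CXCL1 and 90 in CXCL6, and in CCL20 2 overlapping matches lay at 80 and 79. The motif was found in 12 of the 16 list members with a window, counted if any window of the member matched, and in 5.07% of all windows. It was not found in the windows of IL8 and ICAM1, which were called lower, and it was found in that of CXCL5, which was not called. Only these letters were searched, so a site that differs from them would be missed.
CXCL1: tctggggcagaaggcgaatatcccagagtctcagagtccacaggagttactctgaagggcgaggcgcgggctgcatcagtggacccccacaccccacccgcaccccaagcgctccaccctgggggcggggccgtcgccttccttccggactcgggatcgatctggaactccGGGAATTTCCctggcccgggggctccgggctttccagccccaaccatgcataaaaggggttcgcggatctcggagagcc
CXCL6: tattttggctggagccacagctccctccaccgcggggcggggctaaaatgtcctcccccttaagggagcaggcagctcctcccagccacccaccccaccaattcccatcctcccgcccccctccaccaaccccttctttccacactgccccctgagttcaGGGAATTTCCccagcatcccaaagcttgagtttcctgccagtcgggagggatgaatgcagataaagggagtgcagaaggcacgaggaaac
CCL20: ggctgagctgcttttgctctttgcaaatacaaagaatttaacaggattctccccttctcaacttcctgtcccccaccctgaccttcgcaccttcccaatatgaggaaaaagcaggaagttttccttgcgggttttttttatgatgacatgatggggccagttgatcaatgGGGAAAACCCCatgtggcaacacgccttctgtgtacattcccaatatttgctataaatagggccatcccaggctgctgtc

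IL8 (now CXCL8), a neutrophil chemokine, had 5.08 CPM with both drugs, 32.3 with sorafenib, 30.2 with GW3965 and 26.4 with DMSO. Neither drug alone passed an FDR of 0.05 in the authors' deposited tables, while the level with the pair lay below every other group (departure -2.86 ± 0.23, approximate test adjusted p = 3.30e-30). CXCL6 was likewise lowest with the pair, at 1.19 CPM with both drugs, 7.22 with sorafenib, 7.35 with GW3965 and 8.36 with DMSO (departure -2.42 ± 0.25, approximate test adjusted p = 1.40e-18). CXCL1 had 0.693 CPM with both drugs, 6.07 with sorafenib, 13.3 with GW3965 and 16.1 with DMSO. Sorafenib alone had already lowered it, and the pair lay a further -2.86 ± 0.27 under the sum (approximate test adjusted p = 5.98e-23). CCL20 had 1.74 CPM with both drugs, 4.66 with sorafenib, 42.9 with GW3965 and 27.2 with DMSO, so GW3965 was higher than DMSO in the absence of sorafenib and lower in its presence (departure -2.08 ± 0.22, approximate test adjusted p = 1.13e-17). NFKBIZ, a nuclear coactivator of NF-kB targets, had 1.93 CPM with both drugs, 11.3 with sorafenib, 21.7 with GW3965 and 23.5 with DMSO (departure -2.44 ± 0.22, approximate test adjusted p = 1.27e-23).

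The adhesion receptor ICAM1 departed by -1.12 ± 0.22, and the inhibitor genes NFKBIA and NFKBIE by -0.47 ± 0.18 and -0.58 ± 0.16. NFKB1 and RELB, which encode NF-kB subunits, were not called, at -0.26 ± 0.14 and 0.24 ± 0.17. CXCL5, lowered by sorafenib alone, had 7.98 CPM with both drugs, 11.5 with sorafenib, 49.5 with GW3965 and 58.2 with DMSO, and its departure of -0.30 ± 0.17 was not called (approximate test adjusted p = 0.199). IRF1, an interferon-related factor, was the member called higher, at 26.9 CPM with both drugs, 14.3 with sorafenib, 6.73 with GW3965 and 7.37 with DMSO (departure 1.05 ± 0.22, approximate test adjusted p = 0.000104). On the linear scale 7 of the list were called lower, against 1130 of all 11561 genes, and CXCL1 lost its call.

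Many hepatocyte products were called below the sum as well. Of 19 genes of secreted hepatocyte proteins, 9 were called lower and 0 higher in the approximate test (0 also at an unadjusted p under 0.05). Their median departure was -0.54, and over all genes 11.4% were called lower and 10.8% higher. APOA1, the main HDL apolipoprotein, had 260 CPM with both drugs, 858 with sorafenib, 356 with GW3965 and 452 with DMSO. Sorafenib alone gave the highest level and the pair the lowest (departure -1.38 ± 0.36, approximate test adjusted p = 0.00204). APOC3, which slows triglyceride clearance, had 8.84 CPM with both drugs, 24.9 with sorafenib, 6.11 with GW3965 and 7.62 with DMSO (departure -1.18 ± 0.32, approximate test adjusted p = 0.00294). APOB, the LDL apolipoprotein, departed by -1.01 ± 0.35 and APOH by -1.11 ± 0.30, the second of which lost its call on the linear scale. The thyroid hormone carrier TTR had 28.0 CPM with both drugs, 60.9 with sorafenib, 94.9 with GW3965 and 104 with DMSO (departure -0.99 ± 0.19, approximate test adjusted p = 1.70e-05). SERPINA1, α1-antitrypsin, departed by -0.54 ± 0.19 (approximate test adjusted p = 0.0314), with no call when no minimum on expression was set (approximate test adjusted p = 0.0512). Albumin (ALB) and α-fetoprotein (AFP) were not called, with intervals from -0.51 to 0.38 and from -1.26 to 0.01.

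SLC2A2 (GLUT2) had the lowest departure of all, with 0.373 CPM with both drugs, 4.21 with sorafenib, 6.00 with GW3965 and 8.34 with DMSO (-3.03 ± 0.33, approximate test adjusted p = 4.12e-17). The lowest of the markers of other cell types averaged 0.204 CPM, so this both-drug level lay near the low end of the scale. The lowest levels of CXCL1, ABCG1 and LAMP3 also lay toward that end. The fatty acid carrier FABP1 had 7.41 CPM with both drugs, 15.6 with sorafenib, 92.3 with GW3965 and 46.0 with DMSO (departure -2.08 ± 0.32, approximate test adjusted p = 3.25e-08). GW3965 was thus above DMSO in the absence of sorafenib and below sorafenib in its presence, as for CCL20. CYP3A7, a fetal liver cytochrome P450, had 1.14 CPM with both drugs, 8.97 with sorafenib, 2.50 with GW3965 and 2.76 with DMSO, so that its rise with sorafenib alone was absent with the pair (departure -2.83 ± 0.39, approximate test adjusted p = 4.39e-10). Of 6 measured xenobiotic genes, CYP3A7 was called lower and ABCB1, a drug efflux pump, higher (0.42 ± 0.15, approximate test adjusted p = 0.0348). Beside 11.4% lower and 10.8% higher over all genes, nothing is read from these counts. ABCB1 lost its call on the linear scale and with no minimum on expression, and SLC2A2 on the linear scale.

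Hepatocyte transcription factors were called higher in 3 of 17 cases and lower in 2, with a median departure of -0.05, counts close to the 10.8% and 11.4% over all genes. The bile acid receptor gene NR1H4 (FXR) had 16.1 CPM with both drugs, 15.4 with sorafenib, 6.33 with GW3965 and 11.8 with DMSO (departure 0.96 ± 0.31, approximate test adjusted p = 0.0145), a call lost on the linear scale. FOXA2, a pioneer factor of liver genes, had 96.2 CPM with both drugs and 64.0 to 67.2 CPM in the others (departure 0.52 ± 0.15, approximate test adjusted p = 0.00673). PROX1 lay on the other side, with 29.8 CPM with both drugs, 56.4 with sorafenib, 77.6 with GW3965 and 69.5 with DMSO (departure -1.08 ± 0.33, approximate test adjusted p = 0.00952). HNF4A, the central hepatocyte factor, ranged from 145 to 172 CPM and departed by -0.05 ± 0.14.

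ERK output genes, which report signalling downstream of RAF, were called higher in 3 of 15 cases and lower in 4. Their median departure was -0.22, and the shares over all genes were 10.8% higher and 11.4% lower. The immediate early gene EGR1 had 1.55 CPM with both drugs, 2.14 with sorafenib, 34.8 with GW3965 and 15.5 with DMSO. Its rise with GW3965 alone was absent on top of sorafenib (departure -1.63 ± 0.27, approximate test adjusted p = 3.86e-07). IER3, another early response gene, had 12.5 CPM with both drugs, 18.3 with sorafenib, 64.7 with GW3965 and 42.3 with DMSO (departure -1.16 ± 0.22, approximate test adjusted p = 6.61e-06). The ERK phosphatase DUSP6 departed by -0.48 ± 0.18 (approximate test adjusted p = 0.0427), with no call when no minimum on expression was set (approximate test adjusted p = 0.070). Cyclin D1 (CCND1) was not called (-0.34 ± 0.21). MYC, the growth regulator, had 256 CPM with both drugs, 106 with sorafenib, 105 with GW3965 and 94.8 with DMSO, a departure of 1.13 ± 0.18 (approximate test adjusted p = 8.20e-08). ETV5, an ETS factor, had 19.7 CPM with both drugs, 8.14 with sorafenib, 29.4 with GW3965 and 22.7 with DMSO (departure 0.90 ± 0.30, approximate test adjusted p = 0.0187), a call lost on the linear scale.

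DNA replication genes were called higher in 3 of 24 cases and lower in 6, with a median departure of -0.10. All list counts in this paragraph stand beside 10.8% higher and 11.4% lower over all genes. CCNE1, the cyclin of entry into S phase, had 3.56 CPM with both drugs, 8.96 with sorafenib, 22.1 with GW3965 and 25.6 with DMSO (departure -1.12 ± 0.18, approximate test adjusted p = 4.26e-08). UHRF1, which maintains DNA methylation, and RRM2, a ribonucleotide reductase subunit, departed by -1.18 and -0.87. ORC1, an origin binding subunit, had 9.51 CPM with both drugs, 5.97 with sorafenib, 13.2 with GW3965 and 14.2 with DMSO (departure 0.78 ± 0.18, approximate test adjusted p = 0.000492). On the linear scale 1 of the list was called lower, against 1130 of all 11561 genes, and CCNE1 and RRM2 lost their calls. Mitosis genes were called higher in 8 of 20 cases and lower in 0 in the approximate test (0 also at an unadjusted p under 0.05), with a median departure of 0.32. The spindle checkpoint kinase TTK had 47.6 CPM with both drugs, 30.9 with sorafenib, 47.8 with GW3965 and 51.3 with DMSO, so sorafenib alone gave the lowest level (departure 0.73 ± 0.14, approximate test adjusted p = 1.85e-05). NDC80, BUB1B and PLK1, of the kinetochore, the checkpoint and mitotic entry, departed by 0.65, 0.63 and 0.56, with sorafenib alone lowest in each. The proliferation marker MKI67 was not called (-0.04, interval -0.76 to 0.67). Of 13 apoptosis regulators, the death receptor gene TNFRSF10B was called higher (0.50 ± 0.16, approximate test adjusted p = 0.0131) and 0 were called lower (0 also at an unadjusted p under 0.05). BBC3 (PUMA), a BH3-only activator of cell death, was not called (0.33 ± 0.18). Nothing is read from the counts of the apoptosis list.

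Lysosome and autophagy genes were called higher in 6 of 17 cases and lower in 3, with a median departure of 0.18. The shares over all genes, 10.8% higher and 11.4% lower, apply to each list in this paragraph. LAMP3, a stress-induced lysosomal protein, had 38.2 CPM with both drugs, 13.7 with sorafenib, 0.844 with GW3965 and 0.816 with DMSO (departure 1.43 ± 0.36, approximate test adjusted p = 0.00124). The autophagosome factor WIPI1 had 28.8 CPM with both drugs and 13.6 to 15.5 CPM in the other groups (departure 0.88 ± 0.16, approximate test adjusted p = 4.65e-06). GABARAPL1, an ATG8 family member, and TFEB, the master regulator of lysosomal genes, departed by 0.73 and 0.68. The hydrolase genes LIPA, CTSD and HEXA were the members called lower, with departures of -0.63, -0.63 and -0.62. Hypoxia and glycolysis genes were called higher in 1 of 15 cases and lower in 3, again close to those shares over all genes, with a median departure of -0.05. EGLN3, an oxygen-sensing hydroxylase, had 1.75 CPM with both drugs, 3.72 with sorafenib, 5.06 with GW3965 and 4.89 with DMSO (departure -1.14 ± 0.23, approximate test adjusted p = 4.06e-05). The glycolytic regulator PFKFB3 and the collagen prolyl hydroxylase gene P4HA1 departed by -0.89 and -0.65. The glucose transporter gene SLC2A1 departed by 0.45 ± 0.17 (approximate test adjusted p = 0.0338), which lost its call with no minimum on expression. Among 14 common reference genes, 2 were called lower, B2M (-0.52 ± 0.15) and ACTB (-0.46 ± 0.15), and 0 higher in the approximate test (0 also at an unadjusted p under 0.05), with a list median of -0.12.

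The remaining extremes belonged to no list. SLC44A2, a choline transporter, had 18.0 CPM with both drugs, 4.06 with sorafenib, 3.63 with GW3965 and 3.37 with DMSO (departure 2.04 ± 0.35, approximate test adjusted p = 7.58e-07). The microtubule-binding gene MAP2 had 44.3 CPM with both drugs and 8.75 to 11.7 CPM in the other groups (departure 1.75 ± 0.28, approximate test adjusted p = 6.13e-08). LEPREL1 (now P3H2), a collagen prolyl hydroxylase, PPM1K, the phosphatase that activates branched-chain amino acid breakdown, and NR1D1, a clock repressor, departed by 1.58, 1.54 and 1.37. SLFN5, TAF1D, a subunit of the RNA polymerase I selectivity factor, and the transcript labelled ECE2 departed by 1.37, 1.33 and 1.33. At the other end, the kinase gene SGK1 had 2.41 CPM with both drugs, 18.5 with sorafenib, 24.7 with GW3965 and 33.9 with DMSO (departure -2.48 ± 0.34, approximate test adjusted p = 1.64e-10), a call lost on the linear scale. The protocadherin gene PCDH9 and the plasma protease gene HABP2 departed by -2.16 ± 0.50 and -2.08 ± 0.26.

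Departures were then set against those of Huh7, which share no library with Hep3B. In Huh7 the table labelled sorafenib, not the one labelled GW3965, held the rise of LXR targets, so its single-drug labels may be exchanged. The departure subtracts both single-drug effects and keeps its value under such an exchange. A mean of 2 CPM over the 6 tables was reached by 11444 genes. The departure was higher in Hep3B in 120 of them (1.05%) and lower in 463 (4.05%), or 583 in all (5.09%). The median difference over all these genes was -0.12, with a median departure of 0.14 in Huh7, and with that shift subtracted the split became 200 higher and 250 lower. Of the named genes higher in Hep3B, MT2A differed most, as it departed by 2.87 in Hep3B and 0.01 in Huh7 (difference 2.86 ± 0.58, approximate test adjusted p = 0.000218). Of the 11 genes in the metal list, 4 reached 2 CPM in the Hep3B comparisons and 9 over all 6, so several averaged higher in Huh7. Huh7 levels are not given here, and whether the starting level bears on the difference was not tested. SDF2L1 departed by 0.98 in Hep3B and -0.67 in Huh7 (difference 1.65 ± 0.31, approximate test adjusted p = 6.68e-05). HSPA5 departed by 1.01 in Hep3B and 0.29 in Huh7, a difference of 0.72 ± 0.26 that was not called (approximate test adjusted p = 0.0830) and that was called with the median subtracted (approximate test adjusted p = 0.0427).

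Differences between the lines were also called in stress, early response and DNA replication genes, and in some lipid genes. TRIB3 departed by -0.62 ± 0.19 in Hep3B and 0.90 ± 0.26 in Huh7 (difference -1.52 ± 0.33, approximate test adjusted p = 0.000616). The integrated stress response list had a median departure of -0.44 in Hep3B and 0.36 in Huh7. By the approximate test of the difference, 7 of its 27 genes were called lower in Hep3B and 0 higher. Over all genes those shares were 4.05% and 1.05%. In the DNA replication list 7 of 24 were called higher in Hep3B and 1 lower, with median departures of -0.10 in Hep3B and -0.62 in Huh7. Aminoacyl-tRNA synthetases held 5 of 18 called lower in Hep3B and ERK output genes 5 of 15, with 0 higher in each. Fatty acid and triglyceride synthesis held 0 calls among 19 genes, and the cholesterol list 1 higher and 1 lower among 25. EGR1 departed by -1.63 ± 0.27 in Hep3B and 0.25 ± 0.48 in Huh7 (difference -1.87 ± 0.56, approximate test adjusted p = 0.0238). IL8 departed by -2.86 ± 0.23 in Hep3B and 0.63 ± 0.95 in Huh7 (difference -3.50 ± 0.98, approximate test adjusted p = 0.0141). In both EGR1 and IL8 the Huh7 value was within its own error of 0. SREBF1 departed by 0.22 ± 0.14 in Hep3B, where it was not called, and -0.75 ± 0.16 in Huh7 (difference 0.97 ± 0.21, approximate test adjusted p = 0.000667). For CXCL1 the departures were -2.86 in Hep3B and -1.73 in Huh7, and for SLC2A2 -3.03 and -2.28, with no call of the difference (approximate test adjusted p = 0.374 and 0.373). FABP1 departed by -2.08 in Hep3B and -2.11 in Huh7, a difference of 0.03 ± 0.45.

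**Figure D4:**
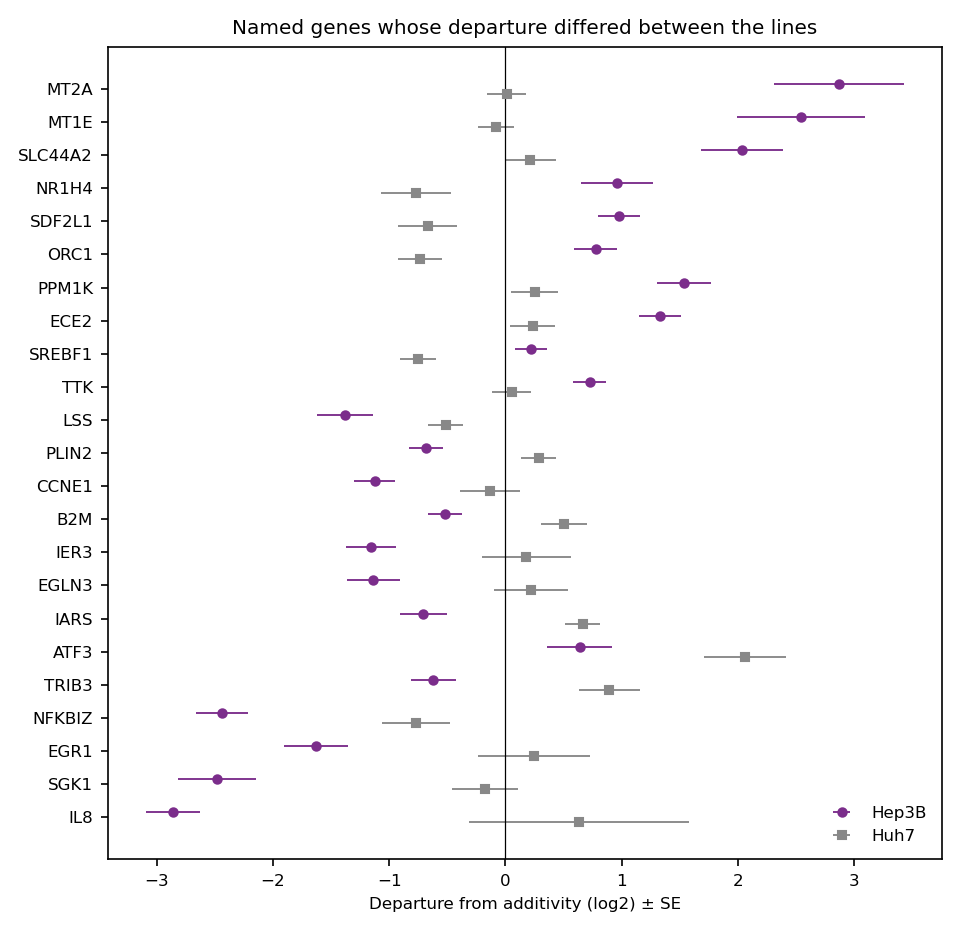
Departure (log2 ± SE, horizontal axis) in Hep3B (circles) and Huh7 (squares) of the 23 named genes whose departure differed between the lines in the approximate test. The difference is positive from MT2A at the top to TTK and negative from LSS to IL8 at the bottom, and the largest is -3.50 for IL8.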

How the data were processed

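Poly-A RNA from 36 Hep3B and 34 Huh7 libraries was grouped by the labels. Per the submitters' processing notes, the tool was edgeR (version not named) and the builds were hg19 and GRCh37. Aligner, counting and normalization: not given in the sources used here. The authors' 6 deposited tables give, per the file headers, the log2 fold change of drug over DMSO, the mean log2 CPM, the p-value and the FDR of 32321 transcripts. Genes stand for the authors' representative transcript. The direction of the fold was checked through the implied DMSO level, whose difference between the Hep3B tables had an SD of at most 0.0110 (log2).

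The departure was computed from these values with Python 3.11.15, numpy 2.4.6, pandas 2.3.3 and scipy 1.17.1. No count model could be refitted. In the approximate test, the standard error of a fold change was its size over the normal score of its p-value. The median of its expression bin (20 bins) replaced it where p exceeded 0.5 and served as its floor. The squared errors of the 3 comparisons were summed, which counts the spread of the DMSO libraries 3 times and widens the error. The 2-sided normal p was adjusted over all genes kept (Benjamini-Hochberg) and called under 0.05.

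Members and gene lists were chosen with earlier results of these data known, so lists are described by counts and medians with no set test. Named genes were the 10 highest and 10 lowest called departures with a mean of 4 CPM or more, up to 4 called members per list with the largest departures (the 2 largest where under 2 were called), and a set of marker genes. Some genes that this rule takes are not reported here. Other genes named were chosen after their values were seen. The alternatives tried are other thresholds, minimums, errors, centring, linear additivity and the transcript with the highest level. Per-library FPKM values were not analysed here.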

Additional observations from a re-analysis of the deposited data

Results flagged for a closer look

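The departure from additivity differed between Hep3B and Huh7 in 120 genes that were higher and 463 that were lower in Hep3B, by the approximate test of the difference itself. Among named genes, 10 were higher in Hep3B, with these differences on the log2 scale. The metallothioneins MT2A and MT1E differed by 2.86 and 2.63, SLC44A2 by 1.82, the bile acid receptor gene NR1H4 by 1.73 and the ER cofactor SDF2L1 by 1.65. ORC1 differed by 1.51, PPM1K by 1.29, ECE2 by 1.10, SREBF1 by 0.97 and TTK by 0.67. Huh7 levels of these genes are not given here.

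The other 13 were lower in Hep3B. IL8 differed by -3.50, SGK1 by -2.31, EGR1 by -1.87, NFKBIZ by -1.67 and TRIB3 by -1.52. ATF3 differed by -1.42, IARS by -1.37, EGLN3 by -1.36 and IER3 by -1.34. B2M differed by -1.02, CCNE1 by -0.99, PLIN2 by -0.97 and LSS by -0.87. The median difference over all genes was -0.12, and with it subtracted LSS, IER3, CCNE1 and ATF3 were no longer called.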

How the results depend on the processing

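The approximate test called 1253 Hep3B departures higher and 1321 lower. At an adjusted p under 0.01 these numbers were 615 and 776, with the squared error scaled by 2/3 they were 2069 and 2028, and a departure of at least 1 in size with no test gave 86 and 196. The other 6 settings gave 1043 to 1477 higher and 1130 to 1465 lower. For the difference between lines, the numbers were 49 higher and 194 lower at an adjusted p under 0.01, 375 and 1223 with the scaled error, and 200 and 250 with the median subtracted, against 120 and 463. Linear additivity, in multiples of the DMSO level, moved the share of higher among Hep3B calls to 54.7%, against 48.7%. Among named genes called on either scale, it reversed the sign of SREBF1 (-0.967), SCD (-1.37), HMGCS1 (-0.426), INSIG1 (-0.529) and TRIB3 (5.07). Of the 106 named genes, 13 lost their call. At an adjusted p under 0.01, 16 named genes lost their call, and with no minimum on expression 7 did. Under the other settings, no named gene changed sign where it had a call in the main or the altered setting. Sign changes of genes with no call in either were not counted.

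No paired analysis was possible because per-library values were not analysed here, and the fits without each replicate and with the replicate number as a block were not run for the same reason. The error rests on the authors' p-values and assumes that fold changes are close to normal. The spread of single libraries, outlying libraries and depth could not be examined. Requiring 2 CPM in each line, a setting chosen after seeing the data, called 121 genes higher and 471 lower in Hep3B.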

Other observations

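Gene families outside the lists differed in their shares of called departures. They were picked after their values had been seen, so these are descriptions with no test of the family, beside 10.8% of all genes called higher and 11.4% lower. Zinc finger genes named ZNF, which encode DNA-binding proteins, were called higher in 64 of 423 cases (15.1%) and lower in 13 (3.07%), with a median departure of 0.25. ZNF610 had 11.9 CPM with both drugs, 5.37 with sorafenib, 2.87 with GW3965 and 3.03 with DMSO, a departure of 1.23 ± 0.32 (approximate test adjusted p = 0.00171). The linker histone genes H1F0 and H1FX were both called higher. H1F0 had 935 CPM with both drugs, 455 with sorafenib, 194 with GW3965 and 218 with DMSO (departure 1.21 ± 0.25, approximate test adjusted p = 5.92e-05).

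Serpin genes, many of them liver-made protease inhibitors, were called lower in 10 of 17 cases (58.8%) and higher in 1, with a median departure of -0.51. SERPING1, the C1 inhibitor, had 23.1 CPM with both drugs, 62.7 with sorafenib, 39.0 with GW3965 and 43.7 with DMSO (departure -1.28 ± 0.17, approximate test adjusted p = 3.14e-11). Collagen genes were called lower in 6 of 12 cases, and integrin alpha genes in 4 of 9. Of 42 complex I subunit genes named NDUF, 7 were called lower (16.7%) and 0 higher in the approximate test (0 also at an unadjusted p under 0.05). NDUFA13 had 45.2 CPM with both drugs, 93.5 with sorafenib, 83.8 with GW3965 and 90.6 with DMSO (departure -0.94 ± 0.18, approximate test adjusted p = 9.13e-06). Cytosolic ribosomal protein genes held 1 call among 75, RPS27L, which was lower, and proteasome genes 1 among 44, PSME2, also lower.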
